A study of Arabidopsis thaliana with 36 samples.

Results

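The 10 genes described here encode enzymes that make the plant hormone jasmonate, activate it, modify it, or take it out of circulation. They are the lipoxygenases LOX2 (AT3G45140) and LOX3 (AT1G17420), the allene oxide synthase AOS (AT5G42650), the conjugating enzyme JAR1 (AT2G46370), the methyltransferase JMT (AT1G19640), the sulfotransferases ST2A (AT5G07010) and ST2B (AT5G07000), and the cytochrome P450 enzymes CYP94B1 (AT5G63450), CYP94B3 (AT3G48520) and CYP94C1 (AT2G27690). They were picked by locus identifier and are 10 of the 32833 genes in the deposited table. The list was drawn up with earlier results of these data known. Counts of members called, set beside the share over all genes, therefore describe these genes and test no enrichment. All 10 passed the filter on low counts, which left 21562 genes tested.

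RNA was sequenced from whole 7-day-old Arabidopsis thaliana seedlings of 4 genotypes, namely the mutants hy5 pif457, hy5 and pif457 and the wild type Col-0 (WT). HY5, a bZIP regulator, drives seedling development in the light, and pif457 seedlings carry mutations in PIF4, PIF5 and PIF7, bHLH factors that promote elongation in shade. The sources used here do not name the mutant alleles. All seedlings grew at 22 °C in continuous white light of 20 to 25 µmol per square metre per second with a red to far-red ratio (R:FR) of about 1.58. They were then moved to white light with added far-red (W+FR), which mimics vegetation shade, with an R:FR of about 0.02. Seedlings of each genotype were collected after 0 h, 1 h or 8 h in W+FR, in 3 biological replicates of about 35 mg, giving 12 groups and 36 libraries. No group stayed in white light until 1 or 8 h, so a response to shade and a change with elapsed time cannot be told apart.

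Library totals ran from 30846115 to 58025421 counts. Levels are given as TMM-scaled CPM, and differences as log2 fold changes ± standard error from the edgeR quasi-likelihood fit. A gene was called in a comparison at an adjusted p below 0.05. rRNA genes took 6.01% to 11.6% of the counts in 12 libraries, all 9 of hy5 pif457 and the 3 of pif457 at 8 h, and 0.467% to 2.63% in the other 24. Any comparison between these 2 sets of libraries cannot be told apart from that difference. The HY5 transcript was at 28.5% of the WT level in hy5 pif457 and 27.9% in hy5 at 0 h. In pif457, PIF5 was at 5.19%, PIF7 at 9.60% and PIF4 at 80.9% of the WT level at 0 h, so the PIF4 transcript was not lost. Root markers were present with a summed level of 1.44 to 406 CPM (14 of 14 tested, 13 of them with counts in every library), and photosynthetic markers with 31580 to 72647 CPM (4 of 4).

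Jasmonate is made in the chloroplast and peroxisome from membrane fatty acids and is best known for wound and herbivore defence, which it favours over growth. Its conjugate with isoleucine, JA-Ile, binds the receptor COI1 and triggers the destruction of JAZ repressors, which frees MYC transcription factors. Plants lower the signal by oxidising JA-Ile, and by hydroxylating jasmonate and then adding a sulfate group to the hydroxyl. Jasmonate can also be methylated.

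The sulfotransferase genes had the largest changes in shade among the 10. In hy5 and WT, ST2A and ST2B rose within 1 h of W+FR and stayed high at 8 h. In hy5 pif457 neither was called at either time, and in pif457 neither was called at 1 h. LOX3 fell in hy5 and in WT. Most other members were not called against 0 h in any genotype.

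Counted over the 8 comparisons of W+FR with 0 h, 14 of 80 pairs of a member and a comparison were called, 11 higher and 3 lower. In hy5 pif457, edgeR called 0 of 10 members at 1 h (0.181% of all genes) and 0 of 10 at 8 h (10.9%), DESeq2 called 0 and 1, and 1 and 3 had an unadjusted p below 0.05. In hy5, 3 of 10 were called at 1 h (6.77%) and 3 of 10 at 8 h (9.27%). In pif457, 0 of 10 were called at 1 h (0.227%) by edgeR, 0 by DESeq2 and 0 at an unadjusted p below 0.05, and 3 of 10 at 8 h (9.94%). In WT, 2 of 10 were called at 1 h (5.2%) and 3 of 10 at 8 h (19.2%). In WT at 8 h, 3 of 10 is close to the share over all genes, so the count there says little about the members.

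**Figure D1:**
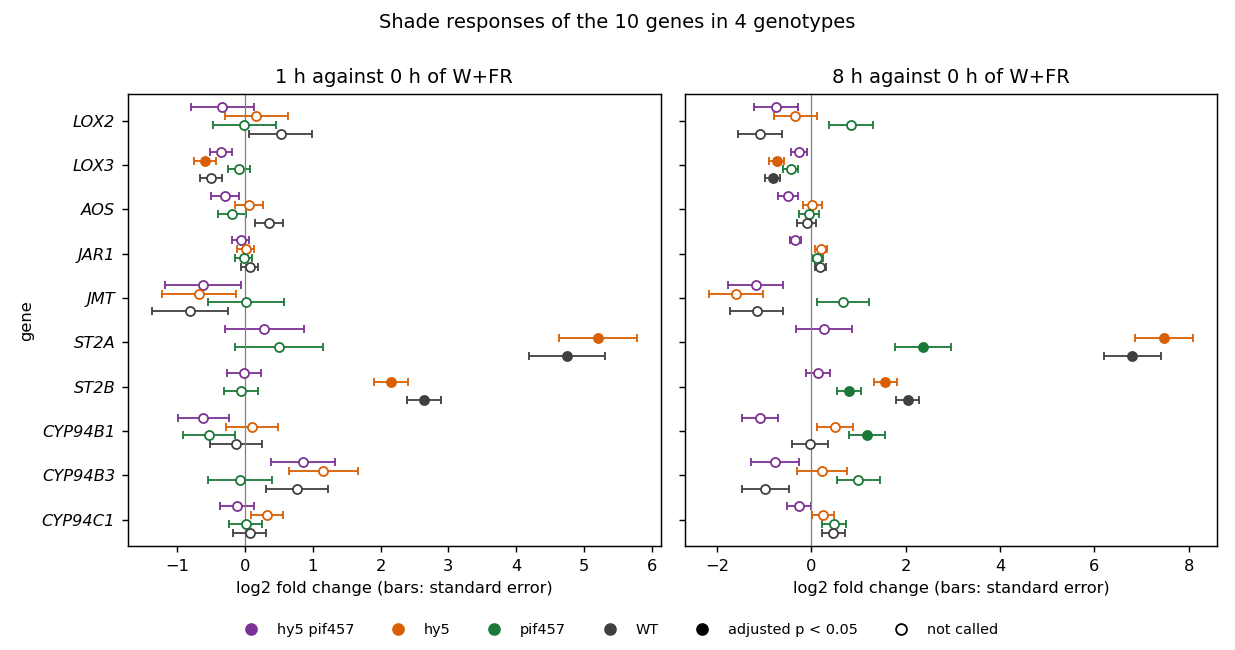
Log2 fold change of each of the 10 genes at 1 h (left) and 8 h (right) of W+FR against 0 h, in hy5 pif457, hy5, pif457 and WT, with bars of 1 standard error; filled points were called at an adjusted p below 0.05. ST2A and ST2B stand to the right in hy5 and WT, with ST2A at 7.48 and 6.81 at 8 h, while the open points of hy5 pif457 for both genes lie near 0.

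ST2A and ST2B encode hydroxyjasmonate sulfotransferases. ST2A is the member whose product is known to sulfate hydroxyjasmonate, and ST2B is its closest relative. The genes adjoin on the minus strand of chromosome 5 in the TAIR10.1 annotation, ST2A at 2174668 to 2176446 and ST2B at 2171367 to 2173015, with 1652 bases and 0 annotated genes between them. Their transcripts share only 4 stretches of 50 bases, 0.231% of those of ST2A and 0.25% of those of ST2B, so reads could be assigned to one or the other over nearly all of their length.

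PIF proteins are known to bind the G-box CACGTG and the PBE-box CACATG, which reads CATGTG on the other strand. In the 1000 bases before the annotated start, the G-box occurred in 14.8% of 27443 promoters and in 2 of 10 members (AOS and CYP94B1), and the PBE-box in 37.7% of promoters and in 7 of 10 members. Both strands were searched, and matches of the PBE-box on opposite strands may overlap. ST2A and ST2B each hold 1 PBE-box and 0 G-boxes in this window, 700 and 672 bases before the start. LOX3, which moved the other way, also holds 1 PBE-box, 65 bases before its start. The PBE-box also occurs in this window of LOX2, JAR1, JMT and CYP94C1, which were not called against 0 h in any genotype. The 60 bases around the matches of ST2A, ST2B and LOX3 allow the 3 sites to be compared. They are read on the strand of the gene from the RefSeq copy of TAIR10.1, with the motif in capitals. They lie at chr5:2177114-2177173 (minus strand), chr5:2173655-2173714 (minus strand) and chr1:5977231-5977290 (plus strand).
ST2A: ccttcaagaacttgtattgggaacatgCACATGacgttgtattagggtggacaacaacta
ST2B: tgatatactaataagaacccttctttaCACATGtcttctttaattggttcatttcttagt
LOX3: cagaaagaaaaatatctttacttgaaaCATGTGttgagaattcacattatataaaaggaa
No binding was measured in these samples, and a match is a description of the letters only.

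In hy5, ST2A stood at 1.21, 0.561 and 1.81 CPM at 0 h, at 40.9, 29.3 and 64.5 CPM at 1 h and at 144, 343.5 and 164 CPM at 8 h. In WT it stood at 1.91, 1.04 and 1.09 CPM at 0 h, at 25.2, 37.4 and 47.1 CPM at 1 h and at 172, 131 and 155 CPM at 8 h. In both genotypes the libraries of the 3 times did not overlap, and each later time was higher. In hy5 the rise was 36.9-fold at 1 h (log2 5.21 ± 0.57, edgeR adjusted p = 2.51e-07) and 179-fold at 8 h (7.48 ± 0.61, adjusted p = 2.65e-09). In WT it was 26.8-fold at 1 h (4.75 ± 0.56, adjusted p = 9.85e-07) and 112-fold at 8 h (6.81 ± 0.60, adjusted p = 4.09e-09). ST2A also rose between the shade times, by 2.28 ± 0.46 on the log2 scale at 8 h against 1 h in hy5 (adjusted p = 0.00188) and by 2.06 ± 0.46 in WT (adjusted p = 0.00417). These are changes in RNA from whole seedlings, where more cells that express a gene and more RNA per cell cannot be told apart.

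ST2B started higher and changed less. In hy5 it stood at 16.5, 14.5 and 22.2 CPM at 0 h, at 70.0, 55.1 and 112 CPM at 1 h and at 37.6, 80.4 and 40.8 CPM at 8 h. In WT the values were 10.6, 12.9 and 10.5 CPM at 0 h, 61.2, 61.4 and 89.0 CPM at 1 h and 47.0, 42.4 and 50.6 CPM at 8 h. All shaded libraries of hy5 and WT were above all libraries of the same genotype at 0 h. The rise in hy5 was 4.44-fold at 1 h (2.15 ± 0.25, adjusted p = 6.25e-07) and 2.98-fold at 8 h (1.57 ± 0.25, adjusted p = 7.02e-05, or 0.0519 when only those groups were fitted). In WT it was 6.22-fold at 1 h (2.64 ± 0.26, adjusted p = 2.16e-08) and 4.12-fold at 8 h (2.04 ± 0.25, adjusted p = 1.21e-06). Unlike ST2A, ST2B was not called higher at 8 h than at 1 h. Its difference was -0.58 ± 0.24 in hy5 (adjusted p = 0.154) and -0.60 ± 0.24 in WT (adjusted p = 0.124).

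The balance of the pair also moved with time. Per kilobase of transcript, the lowest, middle and highest ratio of ST2A to ST2B CPM in hy5 were 0.0358, 0.0677 and 0.0756 at 0 h, 0.492, 0.534 and 0.541 at 1 h, and 3.56, 3.73 and 3.96 at 8 h. In WT they were 0.0751, 0.0963 and 0.167 at 0 h, 0.381, 0.490 and 0.565 at 1 h, and 2.83, 2.86 and 3.39 at 8 h. ST2B was the more abundant transcript per kilobase at 0 and 1 h, and ST2A at 8 h, in every library of both genotypes. In hy5 pif457 the ratio was between 0.0866 and 0.236 at all times, and in pif457 its highest value was 0.652, in 1 library at 8 h.

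In the mutants that carry pif457 the response was far smaller. In hy5 pif457, ST2A stood at 1.19, 1.89 and 2.52 CPM at 0 h, at 2.44, 2.78 and 1.68 CPM at 1 h and at 3.16, 2.28 and 1.34 CPM at 8 h. In pif457 it stood at 0.816, 0.575 and 1.23 CPM at 0 h, at 1.81, 0.620 and 1.25 CPM at 1 h and at 1.21, 2.58 and 9.69 CPM at 8 h. In hy5 pif457 the libraries of the 3 times overlapped, and in pif457 the libraries of 2.58 and 9.69 CPM at 8 h stood above all earlier ones while the third did not. In hy5 pif457 the log2 change was 0.28 ± 0.58 at 1 h (adjusted p = 1) and 0.27 ± 0.59 at 8 h (adjusted p = 0.788). In pif457 it was 0.50 ± 0.65 at 1 h (adjusted p = 0.957), and at 8 h ST2A was called higher (2.37 ± 0.59, adjusted p = 0.0137). That call was lost without replicate 3 of pif457 at 8 h (1.12, adjusted p = 0.335) or replicate 2 of pif457 at 0 h (2.14, adjusted p = 0.0885). With a root marker score as a covariate it was 1.47 (adjusted p = 0.127).

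ST2B followed the same division. In hy5 pif457 it lay between 9.98 and 13.6 CPM in all 9 libraries, with changes of -0.02 ± 0.25 at 1 h and 0.14 ± 0.25 at 8 h. In pif457 it lay between 7.84 and 10.6 CPM at 0 h, between 8.20 and 9.67 CPM at 1 h and at 21.3, 14.6 and 13.8 CPM at 8 h. The libraries of pif457 at 8 h were all above those at 0 h, and ST2B was called higher there (0.80 ± 0.25, adjusted p = 0.0411). The call was lost without any one of 22 of the 36 libraries, with adjusted p values up to 0.364 over all alternatives.

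**Figure D2:**
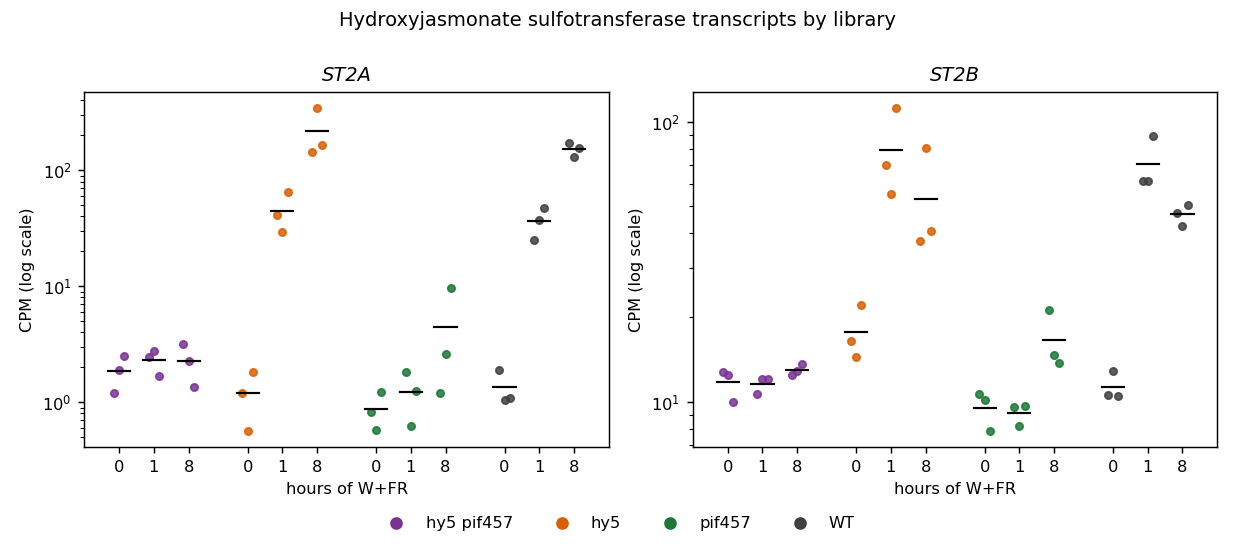
CPM (log scale) of ST2A (left) and ST2B (right) in each of the 36 libraries against hours of W+FR, by genotype; short bars mark group means. In hy5 and WT, ST2A climbs to means of 217 and 153 CPM at 8 h. The ST2B means there are highest at 1 h, at 79.0 and 70.5 CPM, but its difference between 8 h and 1 h was not called. The hy5 pif457 points stay near their level at 0 h.

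Set against WT at the same time, both genes were lower in the mutants that carry pif457. At 1 h, ST2A was lower in hy5 pif457 (-4.00 ± 0.53, adjusted p = 7.23e-06) and in pif457 (-4.88 ± 0.56, adjusted p = 4.78e-07). At 8 h the differences were -6.07 ± 0.57 in hy5 pif457 (adjusted p = 2.98e-08) and -5.08 ± 0.54 in pif457 (adjusted p = 2.43e-07). ST2B was lower by -2.61 ± 0.26 and -1.85 ± 0.25 in hy5 pif457 at 1 and 8 h, and by -2.95 ± 0.26 and -1.49 ± 0.25 in pif457. All 8 of these calls were kept under every alternative run and with each library left out. At 0 h neither gene was called in any mutant.

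The difference in response itself was tested as the log2 change in a mutant minus that in WT. For ST2A it was -4.46 ± 0.81 at 1 h and -6.54 ± 0.82 at 8 h in hy5 pif457, and -4.24 ± 0.87 and -4.44 ± 0.84 in pif457, all called. For ST2B it was -2.66 ± 0.35 and -1.90 ± 0.35 in hy5 pif457, and -2.70 ± 0.35 and -1.24 ± 0.35 in pif457, all called, with adjusted p = 0.048 for the last. That last call was lost without any one of 25 of the 36 libraries. The ST2A difference in pif457 was lost at 1 h without replicate 3 of pif457 at 0 h (-3.88, adjusted p = 0.073) and at 8 h when only those groups were fitted (-4.44, adjusted p = 0.0746). In hy5 pif457, 2 of 10 members were called in this test at 1 h (0.969% of all genes) and 3 of 10 at 8 h (13.7%). In pif457, 2 of 10 were called at 1 h (0.872%) and 2 of 10 at 8 h (2.92%). The pif457 libraries at 1 h belong to the 24 with a low rRNA share, and in a fit of those 24 alone the difference from WT at 1 h was -4.86 ± 0.46 for ST2A and -2.92 ± 0.28 for ST2B.

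No difference between hy5 and WT was called for either gene. The response of ST2A in hy5 minus that in WT was 0.46 ± 0.77 at 1 h and 0.68 ± 0.77 at 8 h (adjusted p = 0.863 and 0.698), and that of ST2B was -0.49 ± 0.34 and -0.47 ± 0.34. In the test of response differences between hy5 and WT, edgeR called 0 of 10 members at 1 h (0% of all genes) and 0 of 10 at 8 h (1.53%), DESeq2 called 0 and 0, and 0 and 0 had an unadjusted p below 0.05. In hy5 set directly against WT, edgeR called 0 of 10 members at 0 h (9.49%), 0 after 1 h (4.27%) and 0 after 8 h (2.61%), DESeq2 called 0 each time, and 2, 1 and 0 had an unadjusted p below 0.05. Loss of HY5 on top of pif457 made no called difference either. ST2A in hy5 pif457 minus pif457 was 1.10 ± 0.65, 0.88 ± 0.58 and -0.99 ± 0.54 at 0, 1 and 8 h, and ST2B was 0.30 ± 0.25, 0.34 ± 0.25 and -0.35 ± 0.25.

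Nearby genes, added after the values were seen, were examined for their position. AT5G06990 is the next annotated gene beyond ST2B. Beyond ST2A the next is AT5G01275, which was not examined here, and AT5G07020 lies further on. AT5G07020 was not called against 0 h in any genotype, at 0.09 ± 0.14 and -0.02 ± 0.14 in hy5 and -0.00 ± 0.14 and -0.01 ± 0.14 in WT at 1 and 8 h. AT5G06990 was not called in hy5 (1.72 ± 0.62 and 0.91 ± 0.62) or WT (0.94 ± 0.62 and 0.38 ± 0.63). At 8 h it was called lower in hy5 pif457 (-1.995 ± 0.65, adjusted p = 0.048) and higher in pif457 (2.00 ± 0.62, adjusted p = 0.0411). Its level was low, with group means between 0.330 and 1.83 CPM. In pif457 it ranged from 0.450 to 3.82 CPM at 8 h and from 0.0783 to 0.792 CPM at 0 h, so those groups overlap. The pif457 libraries also have a high rRNA share at 8 h and a low one at 0 h.

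Over all 36 libraries the genes whose log2 CPM was most like that of ST2A, among 8695 outside the lists used here, were YUC8 (Pearson r = 0.957), PIP5K1 (0.942) and PMEI7 (0.926). Those most like ST2B were IAA2 (0.980), PIN3 (0.962) and YUC8 (0.954). YUC8 makes auxin, IAA2 is an auxin-induced repressor of auxin signalling, and PIN3 exports auxin from cells. These correlations describe libraries that share the same 12 groups, and many genes that respond to shade would have a similar pattern.

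Oxidation of JA-Ile is the work of the CYP94 enzymes. CYP94B1 and CYP94B3 hydroxylate JA-Ile, and CYP94C1 oxidises the product further to a carboxylic acid. None of the 3 genes was called at 1 or 8 h in hy5 pif457, hy5 or WT against 0 h. In WT, CYP94B1 stood at 5.58, 4.70 and 4.61 CPM at 0 h, at 3.14, 4.08 and 6.26 CPM at 1 h and at 6.43, 3.09 and 5.12 CPM at 8 h. These libraries overlap at all 3 times, and the change at 8 h was -0.02 ± 0.38 (adjusted p = 0.98). CYP94C1 was called in none of the 33 comparisons, with group means between 0.696 and 1.18 CPM.

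CYP94B3 was the least abundant member. In WT it stood at 0.484, 0.742 and 0.709 CPM at 0 h, at 0.940, 1.31 and 1.04 CPM at 1 h and at 0.556, 0.177 and 0.235 CPM at 8 h. Its libraries at 8 h were below all at 1 h, and it fell by 1.74 ± 0.49 on the log2 scale at 8 h against 1 h in WT (adjusted p = 0.0241). The call was lost without replicate 2 of WT at 1 h (-1.58, adjusted p = 0.0781), replicate 2 of WT at 8 h (-1.43, adjusted p = 0.128) or replicate 3 of WT at 8 h (-1.53, adjusted p = 0.12), and when only those groups were fitted (-1.74, adjusted p = 0.0861). In the same step 3 of 14 root markers were called lower, with a median change of -2.17, and with the root score as a covariate the CYP94B3 change was -0.84 (adjusted p = 0.221). In this comparison 3 of 10 members were called, against 8.16% of all genes. At 8 h against 1 h, 1 of 10 was called in hy5 (7.17%) and 1 of 10 in pif457 (2.51%). In hy5 pif457 (3.66%), edgeR called 0 of 10, DESeq2 called 1 and 2 had an unadjusted p below 0.05. The totals for this time step were 5 of 40 pairs called, 3 higher and 2 lower.

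In pif457 at 8 h several members reached their highest level, but in 1 library above all. CYP94B1 stood there at 4.25, 8.32 and 20.7 CPM, against 6.43, 3.09 and 5.12 CPM in WT at 8 h. CYP94B3 stood at 0.422, 0.788 and 2.40 CPM, against 0.556, 0.177 and 0.235 CPM in WT. LOX2, whose product makes the fatty acid hydroperoxide from which jasmonate is built, stood at 79.7, 386 and 781 CPM, against 106, 84.0 and 137 CPM in WT. For all 3 genes the groups overlap, with replicate 1 of pif457 inside the range of WT or below it and replicate 3 above all WT libraries. All 3 were called higher, CYP94B1 by 1.18 ± 0.38 (adjusted p = 0.0438), CYP94B3 by 1.88 ± 0.49 (adjusted p = 0.0136) and LOX2 by 1.93 ± 0.48 (adjusted p = 0.0102). Without replicate 3 of pif457 at 8 h none was called: the differences were 0.36 (adjusted p = 0.638), 0.89 (adjusted p = 0.325) and 1.10 (adjusted p = 0.204). Leaving out replicate 2 of WT at 8 h also ended all 3 calls, at 0.87, 1.53 and 1.69 (adjusted p = 0.259, 0.108 and 0.0858). Leaving out replicate 3 of WT at 8 h ended those of CYP94B1 and CYP94B3, at 1.16 and 1.63 (adjusted p = 0.116 and 0.0825). The call of CYP94B1 was lost without any one of 21 of the 36 libraries.

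CYP94B1 was also called higher in pif457 at 8 h than at 0 h (1.18 ± 0.38, adjusted p = 0.0487) and than at 1 h (1.71 ± 0.39, adjusted p = 0.014). The first of these calls was kept under only 1 of 8 alternatives and in 4 of 36 fits with 1 library left out. Without replicate 3 of pif457 at 8 h the changes were 0.35 (adjusted p = 0.665) and 0.89 (adjusted p = 0.441). The rise over 1 h was also lost without replicate 2 (1.49, adjusted p = 0.123) or replicate 3 (1.63, adjusted p = 0.0828) of pif457 at 1 h, and when only those groups were fitted (1.68, adjusted p = 0.56).

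Root markers moved with these values. The root marker score, an average of log2 CPM over the 14 root markers, was -0.20, 2.00 and 3.39 in pif457 at 8 h, against 0.93, -2.84 and -0.72 in WT at 8 h. 10 of the 14 root markers were called higher in pif457 than in WT at 8 h, with a median difference of 2.32 against 0.02 over all genes. After the group means were taken out, the within-group correlation with the score over 36 libraries was 0.84 for CYP94B1, 0.72 for CYP94B3, 0.68 for ST2A, 0.62 for JAR1, 0.51 for LOX2, 0.48 for CYP94C1 and 0.39 for AOS, and between -0.13 and 0.08 for JMT, ST2B and LOX3. With the score as a covariate, the differences between pif457 and WT at 8 h were -0.12 ± 0.27 for CYP94B1 (adjusted p = 0.911), 0.60 ± 0.43 for CYP94B3 (adjusted p = 0.66) and 0.80 ± 0.58 for LOX2 (adjusted p = 0.666), none of them called. The pif457 libraries at 8 h also belong to the 12 with a high rRNA share, and that part in the difference was not tested.

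**Figure D3:**
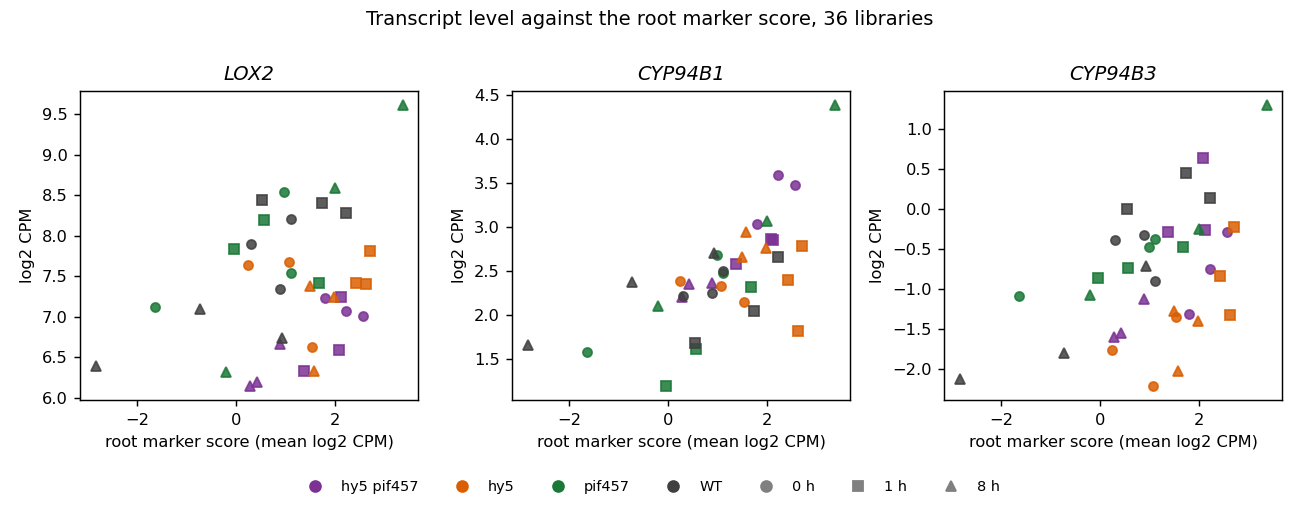
Log2 CPM of LOX2, CYP94B1 and CYP94B3 against the root marker score (mean log2 CPM of 14 root markers) in the 36 libraries, coloured by genotype and shaped by hours of W+FR. The highest point in each panel is replicate 3 of pif457 at 8 h, which also has the highest score, 3.39.

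JMT converts jasmonate to its volatile methyl ester. It was called in none of the 33 comparisons. In WT it stood at 1.91, 0.302 and 1.62 CPM at 0 h, at 1.18, 0.571 and 0.449 CPM at 1 h and at 0.484, 0.648 and 0.587 CPM at 8 h. The spread at 0 h covers all later libraries. Its lowest adjusted p was 0.082, in hy5 at 8 h against 0 h, where it stood at 0.411, 0.505 and 0.409 CPM, against 1.44, 1.60 and 0.975 CPM (-1.59 ± 0.58). Those groups do not overlap, yet the difference did not pass the test.

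**Figure D4:**
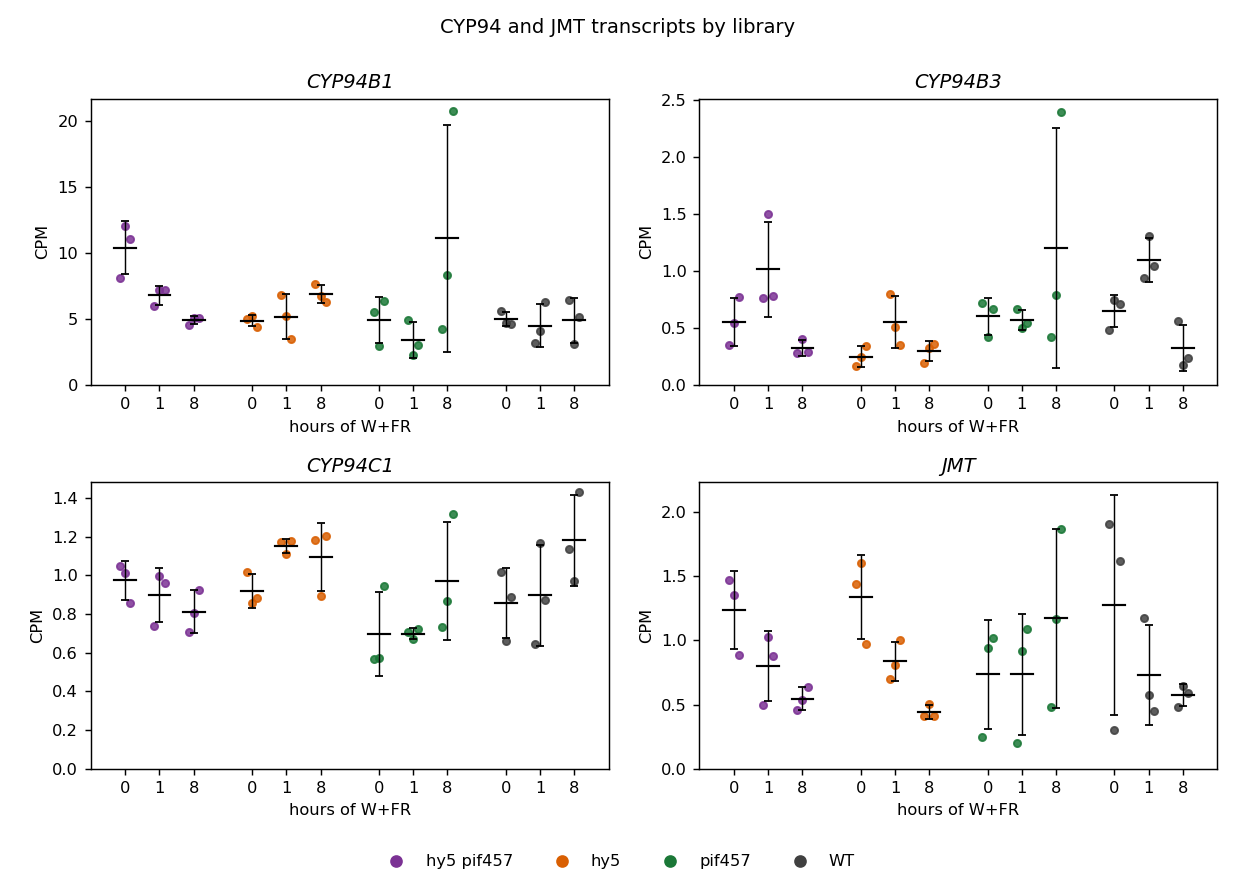
CPM of CYP94B1, CYP94B3, CYP94C1 and JMT in each of the 36 libraries against hours of W+FR, by genotype, with the group mean and 1 SD (n = 3). In pif457 at 8 h, single libraries reach 20.7 CPM for CYP94B1 and 2.40 CPM for CYP94B3, which widens the bars of that group.

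Among the 10 genes, LOX3 gave all 3 called falls against 0 h. LOX3, another lipoxygenase of the pathway, stood at 7.97, 7.91 and 8.23 CPM in hy5 at 0 h, at 6.18, 4.52 and 5.26 CPM at 1 h and at 4.02, 4.72 and 5.73 CPM at 8 h. In WT it stood at 9.42, 9.73 and 9.27 CPM at 0 h, at 5.79, 5.80 and 8.41 CPM at 1 h and at 4.72, 4.89 and 6.56 CPM at 8 h. In both genotypes all shaded libraries were below all libraries at 0 h. LOX3 fell by 0.81 ± 0.16 on the log2 scale at 8 h in WT, to 0.569 of its level at 0 h (adjusted p = 0.000695), and this call was kept under every alternative run and with each library left out. In hy5 it fell by 0.59 ± 0.16 at 1 h (adjusted p = 0.0216) and by 0.74 ± 0.16 at 8 h (adjusted p = 0.00324, or 0.0635 when only those groups were fitted). The call at 1 h in hy5 was lost without replicate 1 of hy5 at 0 h (-0.60, adjusted p = 0.0564) and without replicate 2 (-0.49, adjusted p = 0.124) or 3 (-0.63, adjusted p = 0.0548) of hy5 at 1 h. In WT at 1 h the difference was -0.51 ± 0.16 (adjusted p = 0.062).

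In the mutants that carry pif457 the LOX3 changes were not called. They were -0.35 ± 0.16 and -0.26 ± 0.16 in hy5 pif457 and -0.09 ± 0.16 and -0.44 ± 0.16 in pif457, at 1 and 8 h. No LOX3 response in a mutant was called different from that in WT, so a weaker fall in these mutants was not shown. The level of LOX3 did differ between the PIF mutants. It was 7.70, 7.64 and 5.59 CPM in hy5 pif457 against 11.9, 9.09 and 9.76 CPM in pif457 at 0 h, and 6.05, 4.43 and 5.91 CPM against 10.05, 9.02 and 9.84 CPM at 1 h. The groups did not overlap at either time. The difference was -0.56 ± 0.16 at 0 h (adjusted p = 0.0335) and -0.82 ± 0.16 at 1 h (adjusted p = 0.00248). That at 1 h was kept under every alternative run and with each library left out, while that at 0 h was lost without any one of 5 libraries, with adjusted p values up to 0.201. At both times hy5 pif457 has a high rRNA share and pif457 a low one, so a fit of either set alone cannot make this comparison. LOX3 was also called higher in pif457 than in WT at 8 h (0.49 ± 0.16, adjusted p = 0.0456), a call lost without any one of 31 of the 36 libraries.

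LOX2 was the most variable of the synthesis genes. In WT it stood at 293.9, 162 and 239 CPM at 0 h, at 348.7, 338 and 311.3 CPM at 1 h and at 106, 84.0 and 137 CPM at 8 h. The 3 times did not overlap in WT. The differences from 0 h were 0.52 ± 0.46 at 1 h and -1.09 ± 0.47 at 8 h, neither of them called, and at 8 h LOX2 fell by 1.61 ± 0.47 on the log2 scale against 1 h (adjusted p = 0.032). Leaving out any library of WT at 1 or 8 h ended that call, with adjusted p values of 0.0574 to 0.148 and changes of -1.41 to -1.79. Root markers fell in the same step, with 3 of 14 called and a median change of -2.17, and with the root score as a covariate the LOX2 change was -0.86 (adjusted p = 0.351).

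Between hy5 pif457 and WT, LOX2 differed at 1 h. It stood at 80.4, 96.2 and 151 CPM in hy5 pif457 against 348.7, 338 and 311.3 CPM in WT, with no overlap (-1.61 ± 0.47, adjusted p = 0.0331). Leaving out any 1 of 5 of these 6 libraries ended the call, with adjusted p values of 0.0553 to 0.147. AOS, which converts the lipoxygenase product to allene oxide, was lower in the same comparison. Its libraries stood at 126, 125 and 163 CPM in hy5 pif457 against 200.02, 208 and 279 CPM in WT (-0.73 ± 0.21, adjusted p = 0.0259), and the call was lost without replicate 3 of WT (-0.59, adjusted p = 0.144), replicate 1 of hy5 pif457 (-0.70, adjusted p = 0.107) or replicate 2 of hy5 pif457 (-0.68, adjusted p = 0.112).

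AOS had the highest level per kilobase of transcript, with a median over libraries of 89.9 CPM per kb, followed by LOX2 with 51.4 and JAR1 with 20.3. ST2B had 8.30, CYP94B1 2.73, LOX3 2.20, ST2A 1.33, JMT 0.508, CYP94C1 0.454 and CYP94B3 0.272. AOS was not called against 0 h at either time in any genotype. In WT it stood at 181, 189 and 166 CPM at 0 h, at 200.02, 208 and 279 CPM at 1 h and at 154, 158 and 189.5 CPM at 8 h.

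JAR1, which joins jasmonate to isoleucine and so makes the active form, varied least. Its group means ran from 39.2 CPM in hy5 pif457 at 8 h to 57.0 CPM in hy5 at 8 h, a ratio of 1.45, and no change against 0 h was called. At 8 h it stood at 35.4, 45.2 and 37.0 CPM in hy5 pif457 against 54.2, 58.5 and 58.2 CPM in hy5, with no overlap. That difference, -0.54 ± 0.12 (adjusted p = 0.00329), was kept under every alternative run and with each library left out. The hy5 pif457 libraries have a high rRNA share and the hy5 libraries a low one, so a fit of either set alone cannot make this comparison. The JAR1 response at 8 h was also called lower in hy5 pif457 than in WT (-0.53 ± 0.17, adjusted p = 0.0424). That call was lost under 4 of 8 alternatives and without any one of 12 of the 36 libraries, with adjusted p values up to 0.148.

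**Figure D5:**
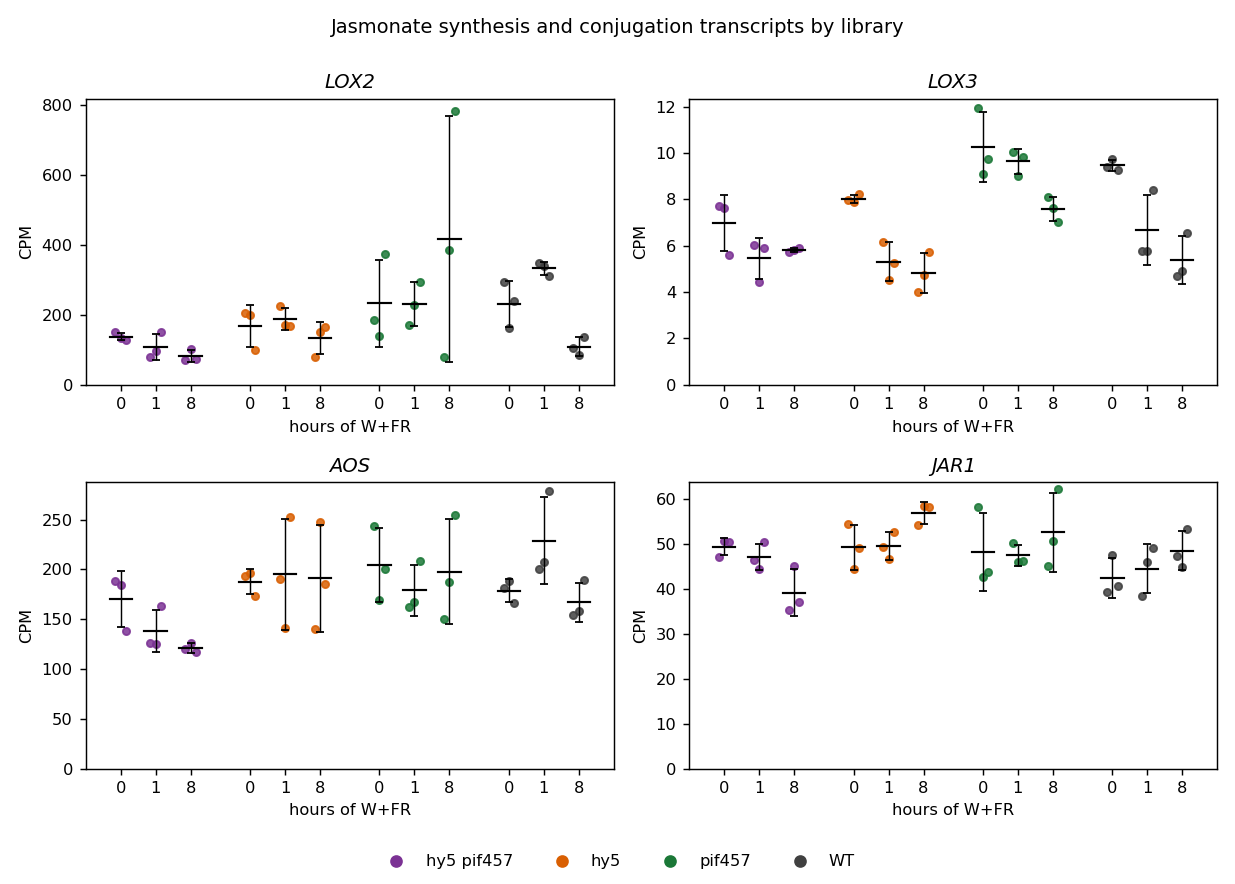
CPM of LOX2, LOX3, AOS and JAR1 in each of the 36 libraries against hours of W+FR, by genotype, with the group mean and 1 SD (n = 3). LOX3 declines with time in hy5 and WT, LOX2 spreads from 79.7 to 781 CPM in pif457 at 8 h, and JAR1 keeps group means between 39.2 and 57.0 CPM.

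At 8 h, AOS and JAR1 were called lower in hy5 pif457 than in both single mutants, and the other members called differed from one of them. Against pif457 at 8 h, 5 of 10 members were called, all lower in hy5 pif457, where 26.5% of all genes were called: LOX2 (-2.34 ± 0.48), CYP94B3 (-1.89 ± 0.49), CYP94B1 (-1.18 ± 0.38), AOS (-0.70 ± 0.21) and JAR1 (-0.43 ± 0.12). Without replicate 3 of pif457 at 8 h only LOX2 remained called, and CYP94B3, CYP94B1, AOS and JAR1 stood at -0.90, -0.36, -0.48 and -0.29. Leaving out replicate 1 or 3 of hy5 pif457 at 8 h ended the calls of CYP94B1 (-1.08 and -1.15), AOS (-0.67 and -0.65) and JAR1 (-0.33 and -0.36). When only those groups were fitted all 5 calls were lost, with LOX2 at -2.33 (adjusted p = 0.0954). Root markers moved in the same direction, with 6 of 14 called lower and a median difference of -1.40, against -0.03 over all genes. With the root score as a covariate the calls of CYP94B3 (-1.08, adjusted p = 0.0519), CYP94B1 (-0.42, adjusted p = 0.2) and AOS (-0.55, adjusted p = 0.0589) were lost. In a fit of the 12 libraries of high rRNA share, CYP94B1 stood at -1.14 (adjusted p = 0.0634). Against hy5 at 8 h, 4 of 10 were called (23.7% of all genes), all lower, namely ST2A (-6.58 ± 0.58), ST2B (-2.03 ± 0.25), AOS (-0.66 ± 0.21) and JAR1. The AOS call was lost without replicate 2 of hy5 at 8 h (-0.41, adjusted p = 0.224), replicate 1 of hy5 pif457 at 8 h (-0.64, adjusted p = 0.0753) or replicate 3 of hy5 pif457 at 8 h (-0.62, adjusted p = 0.0825). It was also lost with the root score as a covariate (-0.53, adjusted p = 0.0706) and when only those groups were fitted (-0.63, adjusted p = 0.0521). At 1 h, 2 of 10 were called against hy5 (3.8%) and 1 of 10 against pif457 (8.04%), and at 0 h 1 of 10 against pif457 (6.85%). Against hy5 at 0 h (0.677%), edgeR called 0 of 10, DESeq2 called 0 and 3 had an unadjusted p below 0.05. In all, 13 of 60 pairs were called, all 13 of them lower in hy5 pif457.

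Against WT, 14 of 90 pairs were called, 4 higher and 10 lower. In hy5 pif457, 4 of 10 members were called at 1 h (7.57% of all genes) and 2 of 10 at 8 h (18.7%). At 0 h (8.94%), edgeR called 0 of 10 there, DESeq2 called 1 and 2 had an unadjusted p below 0.05. In pif457, 2 of 10 were called at 1 h (2.57%) and 6 of 10 at 8 h (11.3%). At 0 h in pif457 (0.0835%), edgeR called 0, DESeq2 called 0 and 0 had an unadjusted p below 0.05. At 0 h no member was called against WT in any mutant.

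Of the 55 calls over the 33 comparisons, ST2A and ST2B made 32, and 26 of those were kept under every alternative run and with each library left out. The other 6 genes with a call made 23, of which 3 were kept in this way: LOX3 in WT at 8 h against 0 h, LOX3 in hy5 pif457 against pif457 at 1 h, and JAR1 in hy5 pif457 against hy5 at 8 h. The calls named here for hy5 pif457 compare libraries of high and low rRNA share. So do the ST2A and ST2B calls that set hy5 pif457, or pif457 at 8 h, against WT or hy5. No fit of either set alone can make these comparisons.

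Among 15 other synthesis genes, 13 were tested. The share of all genes called against 0 h was 5.2% in WT at 1 h and 19.2% in WT at 8 h. At 8 h that share was 9.27% in hy5, 10.9% in hy5 pif457 and 9.94% in pif457. In WT at 1 h, 1 was higher and 0 lower, with OPCL1, a ligase that readies the precursor for shortening in the peroxisome, at 1.02 ± 0.22 (adjusted p = 0.0042). In WT at 8 h, 1 was higher and 1 lower, namely the peroxisomal oxidase ACX1 (0.71 ± 0.14, adjusted p = 0.000929) and the lipoxygenase LOX4 (-1.01 ± 0.32, adjusted p = 0.0266). The median change of the 13 was 0.15 at 1 h and -0.19 at 8 h, against 0.02 and -0.03 over all genes. In hy5 at 8 h 1 was higher and 0 lower, the cyclase gene AOC4 (0.78 ± 0.12, adjusted p = 3.19e-05). These counts in WT and hy5 are close to the shares over all genes and say little about the list. In hy5 pif457 at 8 h 0 were higher and 4 lower, with LOX4 at -1.15 ± 0.33, AOC3 at -1.80 ± 0.53 and FAD8, a fatty acid desaturase, at -0.52 ± 0.17. In pif457 at 8 h 3 were higher and 1 lower, with AOC3 at 1.79 ± 0.52. AOC3 ranged there from 1.72 to 10.2 CPM, against 0.470 to 2.20 CPM at 0 h, so the groups overlap. Root markers rose in the same step, with 2 of 14 called and a median change of 1.90. The pif457 libraries also have a high rRNA share at 8 h and a low one at 0 h. The part of either in these calls was not tested.

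Of 6 other inactivation genes, 4 were tested. Against 0 h, 2 of the 4 were called in hy5 at 1 h (6.77% of all genes) and 1 at 8 h (9.27%). In WT, 1 was called at 1 h (5.2%) and 1 at 8 h (19.2%). ILL6, an amidohydrolase that splits JA-Ile, was called higher in hy5 at 1 h (0.91 ± 0.21, adjusted p = 0.00643) and 8 h (0.94 ± 0.21, adjusted p = 0.00435) and in WT at 1 h (0.71 ± 0.21, adjusted p = 0.0497) and 8 h (0.99 ± 0.21, adjusted p = 0.00174). It was called in neither hy5 pif457 nor pif457 against 0 h. Its response at 8 h was called lower in hy5 pif457 than in WT (-1.04 ± 0.30, adjusted p = 0.0241), while the difference in pif457 was not called. IAR3, a related amidohydrolase, was called higher in hy5 at 1 h (0.58 ± 0.15, adjusted p = 0.0156). The median change of the 4 was 0.48 at 1 h and 0.46 at 8 h in WT, against 0.02 and -0.03 over all genes.

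Genes downstream of the hormone were called in both directions. Of 5 perception genes, MYC4 fell at 1 h (-0.42 ± 0.08) and 8 h (-0.67 ± 0.08) in hy5 pif457, at 1 h (-0.43 ± 0.08) and 8 h (-0.37 ± 0.08) in hy5, at 1 h in pif457 (-0.43 ± 0.08), and at 8 h in WT (-0.39 ± 0.08, adjusted p = 0.000865). The receptor gene COI1 was called in none of these. In each of these comparisons 1 of 5 perception genes was called. The shares of all genes called were, in the same order, 0.181%, 10.9%, 6.77%, 9.27%, 0.227% and 19.2%. Of 13 JAZ repressor genes, 11 were tested. JAZ9 fell at 8 h in hy5 pif457 (-0.70 ± 0.16), in hy5 at 1 h (-0.80 ± 0.16) and 8 h (-0.98 ± 0.16), and in WT at 1 h (-0.59 ± 0.16) and 8 h (-0.81 ± 0.16). In WT 1 JAZ gene was higher and 1 lower at 1 h, and 1 was higher and 2 lower at 8 h, where 5.2% and 19.2% of all genes were called, with a median of -0.11 and -0.15, against 0.02 and -0.03 over all genes. In pif457 at 8 h 3 JAZ genes were higher and 0 lower (9.94% of all genes called), namely JAZ6 (0.55 ± 0.11), JAZ3 (0.70 ± 0.20) and JAZ1 (1.14 ± 0.34). Of 9 jasmonate target genes, 7 were tested. In WT 0 were higher and 1 lower at 1 h (5.2% of all genes called). At 8 h in WT 0 were higher and 2 lower (19.2%). ORA59, a transcription factor of the ethylene and jasmonate defence branch, fell by 1.23 ± 0.20 on the log2 scale at 1 h (adjusted p = 0.000186) and by 1.02 ± 0.20 at 8 h (adjusted p = 0.000676) in WT. In hy5 pif457 at 8 h it was called higher (0.98 ± 0.20, adjusted p = 0.00373). The defence gene PDF1.2 was the other target called lower in WT at 8 h (-2.81 ± 0.99, adjusted p = 0.0465).

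Touch and wounding genes, which handling can move, were measured alongside. Of 8 tested, 1 was higher and 1 lower in WT at 1 h (5.2% of all genes called). At 8 h in WT 0 were higher and 4 lower (19.2%), with ZAT12 at -2.33 ± 0.49, CML38 at -1.68 ± 0.43 and ZAT10 at -2.13 ± 0.59. LOX3 fell in the same libraries, and the part of handling in that was not tested. The within-group correlation of these genes' mean log2 CPM over 36 libraries was 0.52 with ST2B, 0.08 with LOX3 and -0.45 with LOX2. With each of the other members it lay between -0.18 and 0.16. The part of handling in the ST2B values was not tested either.

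Among the jasmonate targets at 8 h, VSP2, a vegetative storage protein induced by jasmonate, ranged from 1.89 to 102 CPM in pif457. In WT at 8 h it ranged from 1.71 to 6.34 CPM. These groups overlap, and VSP2 was called higher in pif457 (3.72 ± 1.10, adjusted p = 0.0287). Of the 7 targets tested, 2 were higher and 0 lower in this comparison, where 11.3% of all genes were called, with a median difference of 0.91 against 0.02 over all genes. Root markers were also higher, with 10 of 14 called and a median difference of 2.32. The rRNA share was high in pif457 at 8 h and low in WT. The part of either in these calls was not tested.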

How the data were processed

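Whole-seedling mRNA was sequenced with a stranded KAPA kit, per the labels' protocols. The authors deposited a table of expected counts per gene, made with STAR 2.5.3a and RSEM 1.3.0 on TAIR10, per the submitters' processing notes. The sources used here do not name the annotation release or strand setting. The expected counts were rounded to whole numbers. One edgeR 4.0.16 quasi-likelihood fit with TMM scaling (R 4.3.3, limma 3.58.1) held all 36 libraries and a term for each of the 12 groups, after a filter with a minimum count of 10 and a minimum total of 15. P-values were adjusted over 21562 genes within each of 33 comparisons by the Benjamini-Hochberg method. Alternatives included DESeq2 1.42.0. Every member is named, and of each other list at most 3 genes with the smallest adjusted p in a comparison, apart from a few named for comparison across genotypes. The members and gene lists were chosen with earlier results of these data known. Replicates are biological per the labels, with nothing further on their source. The fit was checked on simulated counts that vary independently between libraries, for WT at 8 h against 0 h only. That check does not cover differences in root content or rRNA share that libraries have in common. Reference positions and motif matches came from TAIR10.1, joined by locus identifier. Genes most like a member were the 3 with the highest Pearson r of log2 CPM.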

Additional observations from a re-analysis of the deposited data

Results flagged for a closer look

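Of 60 tests of a mutant's shade response against that of WT, 9 were called, all negative, meaning a smaller or more negative response in the mutant. In hy5 pif457 minus WT, ST2A differed by -4.46 at 1 h and -6.54 at 8 h, ST2B by -2.66 and -1.90, and JAR1 by -0.53 at 8 h on the log2 scale. In pif457 minus WT, ST2A differed by -4.24 at 1 h and -4.44 at 8 h, and ST2B by -2.70 and -1.24. The JAR1 call was lost under 4 of 8 alternatives and without any one of 12 of the 36 libraries, and the ST2B call in pif457 at 8 h under 6 of 8 and without any one of 25. All hy5 pif457 libraries and the pif457 libraries at 8 h have a high rRNA share, and its part in these differences was not tested. The pif457 differences at 1 h involve only libraries of low share.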

How the results depend on the processing

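Of the 55 calls, 29 were kept under every alternative that gave a value and with each library left out. Leaving out each library in turn gave 11 to 18 calls for shade against 0 h, 3 to 9 for 8 h against 1 h, 10 to 16 for mutants against WT, 9 to 16 for hy5 pif457 against the single mutants and 7 to 12 for response differences. DESeq2 gave 8 calls at 8 h against 1 h, where edgeR gave 5. With the root marker score as a covariate, CYP94B1 in pif457 minus WT at 8 h changed sign, to -0.12, and 14 other calls were lost. A fit of the compared groups alone lost 20 calls. With a replicate block the counts were 13, 5, 13, 13 and 7, in the order above. Same-numbered libraries did not deviate together (median r = -0.011 over 198 pairs, and 8 of 36 libraries correlated best with their own number). This gave no sign that the numbers pair the samples. It cannot exclude a shared source, on which the labels are silent. Low counts limit CYP94B3 and JMT, whose lowest library counts were 6 and 9.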
